A study of Homo sapiens with 6 samples.

Results

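The 35 genes described here belong to the ATF4 arm and the unfolded protein response of human cells, and they were taken by name from a list. All 35 were found among the 26966 named genes of an RNA-seq table by current symbol, and each gene's value is the sum over its transcripts. The cells were UWB1.289, an established human ovarian carcinoma line without functional BRCA1. There were 3 shHBO1 libraries, from cells transduced with a lentiviral hairpin against HBO1, the histone acetyltransferase encoded by KAT7 (also MYST2), and 3 shCTRL libraries, from cells transduced with a control hairpin. Both groups received polybrene at 10 µg/mL and, from 96 h, puromycin at 1 to 3 µg/mL. The sources used here do not say how many hairpins or clones were used, so off-target effects and the loss of HBO1 cannot be told apart. Nothing in the labels says that the replicates were separate cultures, so p-values describe the spread among 6 libraries and that spread may be technical.

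The endoplasmic reticulum (ER) folds secreted and membrane proteins, and the unfolded protein response adjusts its capacity. Its 3 sensors in the ER membrane are PERK (gene EIF2AK3), IRE1 (gene ERN1) and ATF6. PERK phosphorylates the translation factor eIF2, which lowers protein synthesis while favouring translation of ATF4, a transcription factor for amino acid supply, one-carbon metabolism and stress feedback. Other kinases feed into the same step when amino acids or haem run short. IRE1 cuts a short intron out of XBP1 mRNA so that the active factor is made, and ATF6 is cut in the Golgi to release its own transcription factor. XBP1 and ATF6 drive genes of ER chaperones and of ER-associated degradation (ERAD), which removes misfolded proteins. ATF4 protein is set largely by translation and XBP1 activity by splicing, so the mRNA totals below are not measures of either.

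The libraries held 35940400 to 39908703 recovered reads. KAT7 had 1008, 872 and 784 normalized counts in shHBO1 replicates 1, 2 and 3, against 3616, 3952 and 3554 in shCTRL replicates 1, 2 and 3, which is 23.9% of its control mean. Epithelial markers were abundant, with KRT7 at 110753 to 129776 normalized counts in shHBO1 and 120053 to 139528 in shCTRL, and PAX8 at 8001 to 11189 in shHBO1 and 8351 to 11302 in shCTRL. WT1, another marker of serous ovarian carcinoma, had 6.54 to 18.3 in shHBO1 and 0 to 26.2 in shCTRL. Markers of other cell types were low apart from CDH5 and COL1A1. The 5 leukocyte markers summed to 54.0 to 86.9 normalized counts in shHBO1 and 84.9 to 100.5 in shCTRL, with CD3E at 0 in all but 1 library. The 5 fibroblast markers summed to 741 to 903 in shHBO1 and 504 to 846 in shCTRL, nearly all of it COL1A1, and DCN was at 0 in every library. The 4 endothelial markers summed to 790 to 949 in shHBO1 and 924 to 1319 in shCTRL, most of it CDH5. The part of these genes in the results was not tested. The libraries numbered 3 stood apart from the others in both groups on the first principal component, which held 44.4% of the variance. In such whole-culture RNA a change in the share of cells and a change in RNA per cell cannot be told apart.

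None of the 35 genes passed the test between shHBO1 and shCTRL. The test was limma-trend on log2(normalized count + 1), with Benjamini-Hochberg adjustment over the 15172 genes that averaged 10 or more normalized counts, and all 35 genes were above that limit. The count was 0 of 35 at an adjusted p under 0.05, where KAT7 alone, 0.00659% of the tested genes, passed. At an unadjusted limma p under 0.05 there were 2 of the 35 genes, PDIA4 and ATF3 (5.71%), against 3.55% of all tested genes, and edgeR and DESeq2 on recovered reads each gave 2 as well, against 3.66% and 3.68% of all tested genes. With the replicate number as a block, again 0 of the 35 passed, where 0.125% of the tested genes did, and 3 (8.57%, with XBP1 added) had an unadjusted limma p under 0.05, against 11.3% of tested genes. The groups did not overlap in 2 of the 35 genes (5.71%), CEBPG and PDIA4, against 8.93% of tested genes. The difference had the same sign in all 3 numbered pairs in 11 of the 35 (31.4%), against 32.4% of tested genes. Of these, CEBPG, STC2, MTHFD2, DNAJC3 and CRELD2 were higher in shHBO1, and PDIA4, XBP1, EIF2AK3, SDF2L1, HSPA5 and EDEM1 were lower. The shares of members were thus close to or below those of all tested genes for overlap and sign.

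The confidence intervals, each for its own gene and from the spread among the 6 libraries, were narrow for most of the genes. Log2 fold changes, shHBO1 minus shCTRL, ran from -0.34 for ATF3 to 0.25 for CHAC1, with 19 above 0 and 16 below. The median was 0.033, where the median over all tested genes was 0.00011. All 35 of the 95% confidence intervals lay within a 2-fold change in either direction. Of them 31 lay within 1.5-fold, as did those of 10029 of the 15172 tested genes, a set not matched by mean count. The 4 wider ones of the 35 belonged to DDIT4, ERN1, CHAC1 and ATF3. The median absolute log2 fold change was 0.088 in the 35 genes and 0.093 over all tested genes. It was 0.060 over the 6339 tested genes with a mean at or above the lower quartile of the 35. Without the libraries numbered 3 the median was -0.034 and 13 of the 35 estimates were above 0. In that fit 5 of the 35 genes had an unadjusted limma p under 0.05, against 14.3% of tested genes, and 0 passed after adjustment. With 1 library left out the median of the 35 ran from -0.020 to 0.028, so its sign depended on the libraries used.

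**Figure D1:**
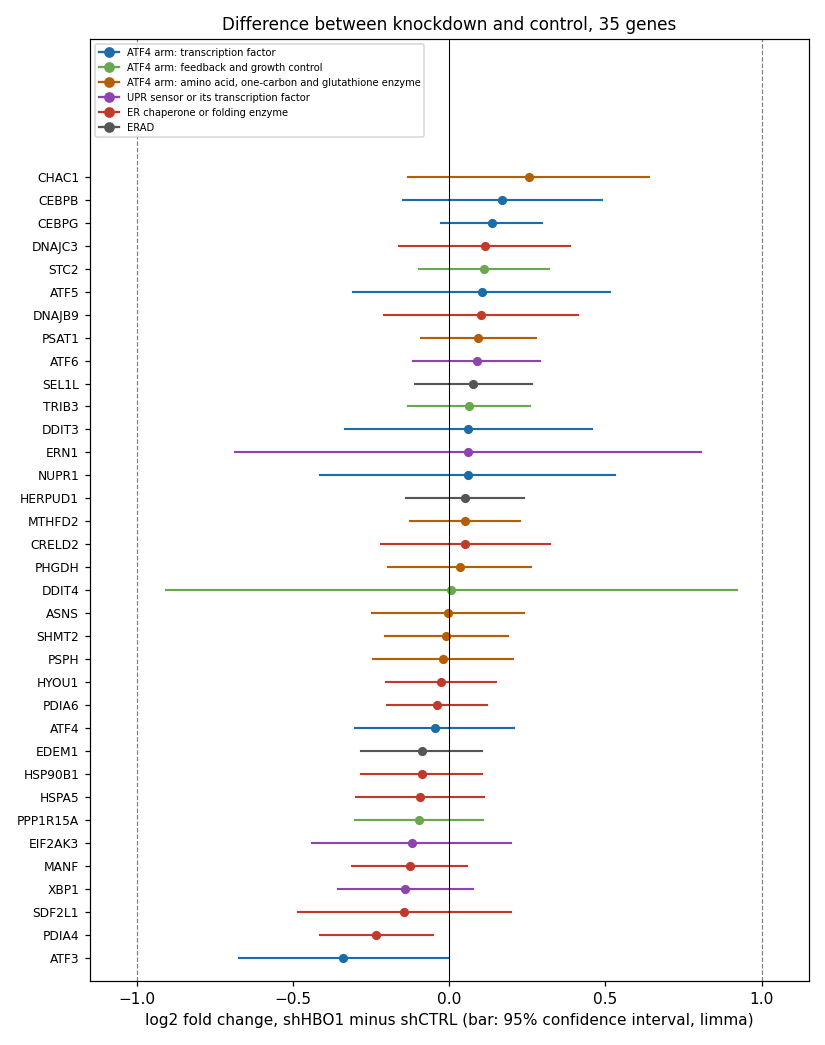
Log2 fold change (shHBO1 minus shCTRL, x axis) of the 35 genes with 95% confidence intervals from limma as bars, ordered by size and coloured by role. Every bar lies between the dashed lines at a 2-fold change, and the widest bar is that of DDIT4.

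**Figure D2:**
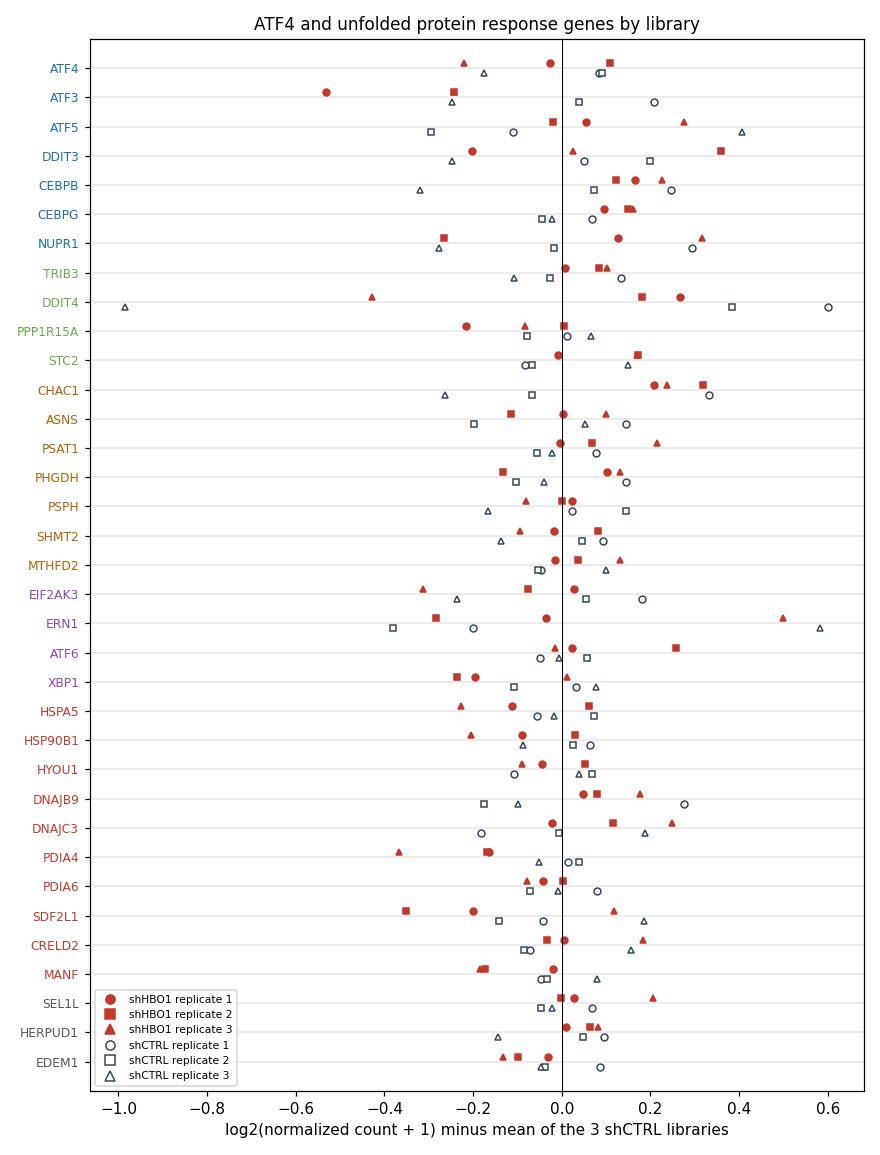
Each library's log2(normalized count + 1) minus the mean of the 3 shCTRL libraries (x axis), for the 35 genes (y axis), with shHBO1 as filled red symbols above shCTRL as open symbols and the symbol shape giving the replicate number; gene names are coloured by role. The groups overlap in all genes but PDIA4 and CEBPG, and the triangles of replicate 3 in both groups stand apart for DDIT4 and ERN1.

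The promoters of these genes were searched for the response elements known for ATF4 targets and for XBP1 and ATF6 targets. Promoter sequences, from RefSeq on GRCh38.p14, were found for 32 of the 35 genes in 45 windows, because some genes have several start sites. SHMT2, PSPH and NUPR1 had no entry. Each window ran from 250 bases before to 50 after a start site, and both strands were searched. The core of the amino acid response element, TGATGNAA, at which ATF4 dimers bind, was in 5 of the 45 windows (ASNS, ATF3, CEBPG, CHAC1 and HERPUD1), 11.1%, and in 3.62% of all 35116 windows. The ER stress response element, CCAAT followed after 9 bases by CCACG, was also in 5 windows (CRELD2, HSP90B1, HSPA5, PDIA6 and XBP1), 11.1%, and in 0.0769% of all windows. Its second form, ATTGG followed after 1 base by CCACG, was in 3 windows (HERPUD1, HYOU1 and SDF2L1), 6.67%, and in 0.0541% of all. The element TGACGTGG was in the HYOU1 window only, 2.22%, and in 0.729% of all, and there it overlapped a match of the second form. Some of these genes are known for the elements, so the shares describe the list and say nothing of factor binding in these cells.

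Stretches of 200 bases before the start site are shown for 6 genes, with matches in capitals. ASNS and HSPA5 are the textbook carriers of each element and HERPUD1 carries both kinds. CEBPG and PDIA4 are the genes whose groups did not overlap, and DDIT4 is the gene that differed most between replicate numbers. PDIA4 and DDIT4 held none of the 4 motifs in these windows.
ASNS (chr7:97872409-97872608, minus strand): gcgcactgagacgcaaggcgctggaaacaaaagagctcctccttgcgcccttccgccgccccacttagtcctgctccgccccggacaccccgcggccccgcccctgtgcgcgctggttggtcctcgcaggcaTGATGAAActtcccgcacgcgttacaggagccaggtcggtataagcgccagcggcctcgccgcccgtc
CEBPG (chr19:33373913-33374112, plus strand): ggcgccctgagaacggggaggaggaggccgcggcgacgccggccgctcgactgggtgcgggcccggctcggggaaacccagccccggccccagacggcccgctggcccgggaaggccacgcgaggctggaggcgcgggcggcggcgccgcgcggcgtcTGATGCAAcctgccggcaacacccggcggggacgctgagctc
HSPA5 (chr9:125241344-125241543, minus strand): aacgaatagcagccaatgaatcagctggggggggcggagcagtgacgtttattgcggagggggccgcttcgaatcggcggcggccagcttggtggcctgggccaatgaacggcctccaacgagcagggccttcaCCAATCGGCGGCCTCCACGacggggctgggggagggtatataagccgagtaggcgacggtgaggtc
HERPUD1 (chr16:56931942-56932141, plus strand): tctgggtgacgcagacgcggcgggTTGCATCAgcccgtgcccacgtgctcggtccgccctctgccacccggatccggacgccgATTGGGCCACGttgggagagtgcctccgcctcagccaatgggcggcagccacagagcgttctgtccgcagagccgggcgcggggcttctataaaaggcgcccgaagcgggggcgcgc
PDIA4 (chr7:149028491-149028690, minus strand): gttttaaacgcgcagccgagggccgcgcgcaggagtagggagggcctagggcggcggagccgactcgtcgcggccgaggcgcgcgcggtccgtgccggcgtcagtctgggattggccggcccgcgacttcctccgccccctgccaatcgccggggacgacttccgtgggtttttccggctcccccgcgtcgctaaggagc
DDIT4 (chr10:72273724-72273923, plus strand): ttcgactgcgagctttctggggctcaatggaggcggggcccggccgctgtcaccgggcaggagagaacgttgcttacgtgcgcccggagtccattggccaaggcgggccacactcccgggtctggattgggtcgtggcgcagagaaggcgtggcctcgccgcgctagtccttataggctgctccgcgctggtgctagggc
In the ASNS, CEBPG and HSPA5 windows the matches began 68, 42 and 66 bases before the start site.

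The transcription factors of the ATF4 arm did not pass as individual genes, and their median log2 fold change was 0.061, with 5 of 7 above 0. Without the libraries numbered 3 the median was -0.045, with 2 of 7 above 0. ATF4 itself had 11606, 12754 and 10142 normalized counts in shHBO1 replicates 1, 2 and 3, against 12522, 12594 and 10470 in shCTRL replicates 1, 2 and 3. The groups overlapped, replicate 3 was the lowest in each, and the shHBO1 mean was 97.0% of the shCTRL mean. On the log2 scale the difference was -0.046 with an SE of 0.11 (limma adjusted p = 1.00), and its 95% confidence interval ran from -0.30 to 0.21. An increase in ATF4 mRNA of more than 1.16-fold, or a level below 0.812 times the control, lay outside the interval.

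DDIT3 encodes CHOP, the factor that links prolonged ER stress to cell death. It had 803, 1185 and 940 normalized counts in shHBO1, against 956, 1060 and 777 in shCTRL, with the groups overlapping (log2 fold change 0.061, SE 0.17, limma adjusted p = 1.00). Its sign turned without the libraries numbered 3, to -0.045. Its numbered pairs gave log2 differences of -0.25, 0.16 and 0.27.

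ATF3, a stress-induced repressor and activator downstream of ATF4, had the lowest estimate of the list. It had 607, 742 and 742 normalized counts in shHBO1, against 1015, 903 and 740 in shCTRL. Replicate 3 was at the same level in both groups, and the 2 highest values were shCTRL replicates 1 and 2. On the log2 scale the difference was -0.34 (SE 0.14, with a 95% confidence interval of -0.67 to -0.0045, limma adjusted p = 1.00). Without the libraries numbered 3 it was -0.51, with a limma adjusted p = 0.175.

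CEBPG, a bZIP partner with which ATF4 can bind its targets, was 1 of the 2 genes whose groups did not overlap. It had 2764, 2869 and 2892 normalized counts in shHBO1, against 2710, 2508 and 2545 in shCTRL. The lowest shHBO1 value, 2764, was just above the highest shCTRL value, 2710, with a fitted log2 difference of 0.14 (SE 0.070, 95% confidence interval -0.027 to 0.30, limma adjusted p = 1.00). CEBPB, a related C/EBP factor induced in the same response, had 3263, 3168 and 3404 normalized counts in shHBO1, against 3455, 3062 and 2334 in shCTRL. Its 3 deposited transcripts held identical reads in all libraries, so its summed level is 3 times that of any of them, while its fold change (log2 0.17, SE 0.14) is not affected by the repeat. The lowest value was that of shCTRL replicate 3, and without the libraries numbered 3 the estimate was -0.017.

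ATF5, an ATF4-like factor with its own translational control, had 1788, 1695 and 2081 normalized counts in shHBO1, against 1593, 1401 and 2280 in shCTRL. Replicate 3 was highest in each group, and the log2 fold change between groups was 0.10 (SE 0.18). NUPR1, a small stress-induced chromatin protein, had 343, 261 and 391 in shHBO1, against 385, 310 and 259 in shCTRL. In NUPR1 the groups overlapped (log2 fold change 0.059, SE 0.20).

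The feedback genes of the arm gave a median log2 fold change of 0.035 over 4 genes, and -0.040 without the libraries numbered 3. TRIB3, a pseudokinase that restrains ATF4, had 2755, 2908 and 2941 normalized counts in shHBO1, against 3008, 2693 and 2545 in shCTRL (log2 fold change 0.064, SE 0.084). PPP1R15A encodes GADD34, which brings a phosphatase to eIF2 and ends the response. It had 1532, 1787 and 1680 in shHBO1, against 1795, 1687 and 1862 in shCTRL, with overlapping groups (log2 fold change -0.098, SE 0.088). STC2, a secreted glycoprotein induced through ATF4, had 9336, 10586 and 10575 in shHBO1, against 8875, 8971 and 10423 in shCTRL. It was higher in shHBO1 in all 3 numbered pairs, by log2 differences of 0.073, 0.24 and 0.021, and did not pass (SE 0.090, limma adjusted p = 1.00).

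DDIT4 encodes REDD1, an inhibitor of mTORC1 induced by ATF4, hypoxia and glucocorticoids. It had 6772, 6389 and 4188 normalized counts in shHBO1 replicates 1, 2 and 3, against 8545, 7351 and 2845 in shCTRL replicates 1, 2 and 3. The difference between groups ran in opposite directions, with log2 values of -0.34 and -0.20 in pairs 1 and 2 and 0.56 in pair 3. The log2 fold change over all libraries was 0.0066 (SE 0.39, 95% confidence interval -0.91 to 0.92), the widest interval of the list. Without the libraries numbered 3 it was -0.27, with a limma adjusted p = 0.260.

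The enzymes of amino acid, one-carbon and glutathione metabolism had a median log2 fold change of 0.033, with 4 of 7 above 0. Without the libraries numbered 3 the median was -0.030, with 3 of 7 above 0. ASNS, which makes asparagine, had 4530, 4176 and 4845 normalized counts in shHBO1, against 4999, 3944 and 4687 in shCTRL. The group means were 4517 ± 335 in shHBO1 and 4543 ± 542 in shCTRL (SD, n = 3 each), and the log2 fold change was -0.0039 (SE 0.10). The 3 enzymes of serine synthesis lay close to 0 as well. PHGDH, the first step, had a log2 fold change of 0.033 (SE 0.099), PSAT1, the second, 0.093 (SE 0.079), and PSPH, the last, -0.019 (SE 0.096).

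PSAT1 had 9642, 10143 and 11224 normalized counts in shHBO1, against 10204, 9300 and 9529 in shCTRL, with overlapping groups. The mitochondrial one-carbon enzymes SHMT2 and MTHFD2 had log2 fold changes of -0.010 (SE 0.085) and 0.051 (SE 0.076). For ASNS, PSAT1, PHGDH, PSPH, SHMT2 and MTHFD2 the 95% confidence intervals lay within 1.5-fold. CHAC1, which degrades glutathione and is among the most responsive ATF4 targets, had the highest estimate of the list with all 6 libraries. It had 380, 410 and 388 normalized counts in shHBO1, against 414, 314 and 274 in shCTRL. The highest of its 6 values was shCTRL replicate 1, so the groups overlapped, and the log2 fold change was 0.25 (SE 0.17, limma adjusted p = 1.00). It ran from 0.12 to 0.42 with 1 library left out. Without the libraries numbered 3 it was 0.13, below the 0.22 of ATF5, the 0.16 of STC2 and the 0.14 of DNAJC3 and ATF6.

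Over the 18 genes of the ATF4 arm the median difference was -0.11, 0.083 and 0.13 in pairs 1, 2 and 3, so the pairs did not share a sign. The medians over all tested genes in those pairs were 0.0063, 0.00096 and -0.0098. Over the 17 sensor, chaperone and ERAD genes the medians were -0.088, 0.0042 and -0.070.

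The sensors had small differences. EIF2AK3 (PERK) had 1218, 1134 and 962 normalized counts in shHBO1, against 1356, 1242 and 1015 in shCTRL. It was lower in shHBO1 in all 3 pairs, with overlapping groups, and the log2 fold change was -0.12 (SE 0.14, limma adjusted p = 1.00). ERN1 (IRE1) was the gene of lowest counts, at 77.6, 65.2 and 113 in shHBO1, against 69.1, 60.9 and 120 in shCTRL. Replicate 3 was the highest in each group, and the interval of its log2 fold change (0.060, 95% confidence interval -0.69 to 0.81) was wide. ATF6 had 5765, 6778 and 5612 in shHBO1, against 5477, 5899 and 5647 in shCTRL (log2 fold change 0.088, SE 0.088).

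XBP1 had 2466, 2398 and 2848 normalized counts in shHBO1, against 2886, 2622 and 2979 in shCTRL. It was lower in shHBO1 in all 3 pairs, by log2 differences of -0.23, -0.13 and -0.065, and the groups overlapped because shHBO1 replicate 3 exceeded shCTRL replicate 2. Its log2 difference was -0.14 with an SE of 0.093 (95% confidence interval -0.36 to 0.076, limma adjusted p = 1.00). With the replicate block the limma adjusted p = 0.442.

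XBP1 was deposited as 2 transcripts that represent the unspliced mRNA (NM_005080) and the mRNA spliced by IRE1 (NM_001079539). Comparison of their GENCODE 29 sequences, from chromosome 22, placed a stretch of 26 bases, in capitals below, in the unspliced form only. Bases repeat at its ends, so it can be placed at 7 positions. The one shown leaves G before each cut, which does not by itself single it out.
Unspliced XBP1: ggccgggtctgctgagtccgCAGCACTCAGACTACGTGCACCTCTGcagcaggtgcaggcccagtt
Spliced XBP1: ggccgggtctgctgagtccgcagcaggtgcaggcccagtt
The spliced-form transcript had 664, 893 and 543 normalized counts in shHBO1 replicates 1, 2 and 3, against 984, 764 and 864 in shCTRL replicates 1, 2 and 3. Its share of XBP1 counts was 26.9%, 37.2% and 19.1% in shHBO1, against 34.1%, 29.14% and 29.004% in shCTRL. The highest and the lowest share were both in shHBO1, so the groups overlapped. The mean share was 27.8 ± 9.11% in shHBO1 and 30.7 ± 2.90% in shCTRL (SD, n = 3 each), a difference of -2.99 percentage points (exact two-sided permutation test p = 0.7, where 3 against 3 cannot go below 0.1). The difference was -7.15, 8.10 and -9.93 points in pairs 1, 2 and 3. The compared sequences were 1850 bases long for the unspliced and 1794 for the spliced form, so they also differ outside the stretch of 26 bases. Reads in shared parts cannot tell the forms apart, and reads in the other differences do not report the splicing. The sources used here do not say how reads were assigned, so the share describes the authors' assignment.

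**Figure D3:**
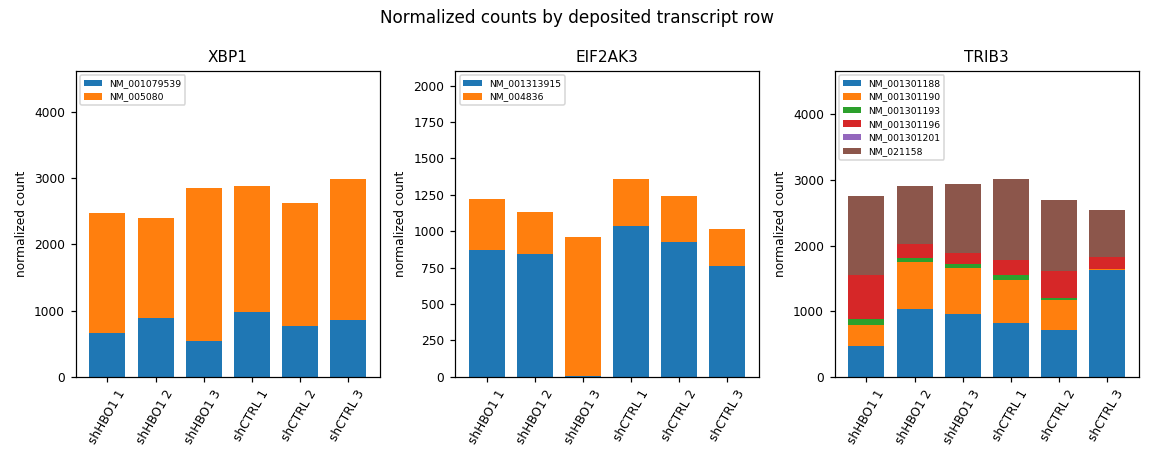
Stacked normalized counts (y axis) of the deposited transcripts of XBP1, EIF2AK3 and TRIB3 in each library (x axis). EIF2AK3 totals lie between 962 and 1356, while NM_001313915 of EIF2AK3 is nearly absent from shHBO1 replicate 3 and NM_001301190 of TRIB3 from shCTRL replicate 3.

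Single transcripts varied more than the gene totals. EIF2AK3 had 870, 843 and 8.68 normalized counts on NM_001313915 in shHBO1, against 1034, 925 and 763 in shCTRL. Its other transcript, NM_004836, had 349, 291 and 953 in shHBO1, against 322, 317 and 252 in shCTRL. In shHBO1 replicate 3 the counts were thus on the other transcript, while the gene total of 962 was close to the 1015 of shCTRL replicate 3. Read from its most abundant transcript alone, EIF2AK3 had a log2 fold change of -2.23, against -0.12 for the gene total, and did not pass (limma adjusted p = 1.00). TRIB3 had 320, 709 and 702 normalized counts on NM_001301190 in shHBO1, against 647, 467 and 11.5 in shCTRL, with shCTRL replicate 3 far below the rest.

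Leaving CEBPB aside, 15 of the 35 genes had at least 2 transcripts with a mean of 50 or more. The share of the leading transcript ranged over more than 20 percentage points between libraries in 2 of them, EIF2AK3 and ATF3. ATF4 was on NM_182810 at 95.1 to 98.8% in every library. Because of this spread the gene totals are used throughout, and no transcript is described as changed.

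The ER chaperones and folding enzymes had a median log2 fold change of -0.064, with 7 of 10 below 0, and 0 of 10 passed. Without the libraries numbered 3 the median was -0.028, with 4 of 10 above 0. PDIA4, a protein disulfide isomerase of the ER (ERp72), had the smallest p of the list. It had 8499, 8469 and 7377 normalized counts in shHBO1, against 9605, 9770 and 9189 in shCTRL. The groups did not overlap, and shHBO1 was lower in all 3 pairs, by log2 differences of -0.18, -0.21 and -0.32. The mean was 8115 ± 639 in shHBO1 and 9521 ± 299 in shCTRL (SD, n = 3 each), 85.2% of control. Its log2 difference was -0.23 with an SE of 0.078 (95% confidence interval -0.41 to -0.053, limma adjusted p = 1.00), and its p ranked 159 among all tested genes. With the replicate block the limma adjusted p = 0.211.

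HSPA5 encodes BiP, the main ER chaperone and the standard marker of the response. It had 27783, 31294 and 25632 normalized counts in shHBO1, against 28861, 31570 and 29668 in shCTRL. It was lower in shHBO1 in all 3 pairs and the groups overlapped (log2 fold change -0.093, SE 0.089, 95% confidence interval -0.30 to 0.11, limma adjusted p = 1.00). Increases above 1.08-fold lay outside that interval. HSP90B1, the ER member of the HSP90 family, had a log2 fold change of -0.088 (SE 0.083).

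The BiP partners did not differ beyond the spread either. DNAJC3, a co-chaperone that also inhibits PERK, gave 0.11 on the log2 scale (SE 0.12) and was higher in shHBO1 in all 3 pairs. DNAJB9, a co-chaperone that restrains IRE1, had 0.10 (SE 0.13), and HYOU1, a nucleotide exchange factor of BiP, had -0.027 (SE 0.076). SDF2L1, an ER-resident chaperone cofactor, had 740, 667 and 923 normalized counts in shHBO1, against 826, 771 and 967 in shCTRL. SDF2L1 was lower in shHBO1 in all 3 pairs, with overlapping groups (log2 fold change -0.14, SE 0.15).

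MANF, a secreted ER stress protein that binds BiP, had 2970, 2667 and 2647 in shHBO1, against 2914, 2943 and 3179 in shCTRL (log2 fold change -0.13, SE 0.079). In MANF, 2 of the 3 shHBO1 values lay below all of the shCTRL values, and the pairs differed in sign. CRELD2, another ER stress-inducible secreted protein, gave 0.051 on the log2 scale (SE 0.12), and PDIA6, a disulfide isomerase that attenuates IRE1 and PERK, had -0.039 (SE 0.069).

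The ERAD genes were HERPUD1, a scaffold of the ubiquitin ligase complex, SEL1L, its adaptor, and EDEM1, a mannosidase-like protein that marks misfolded glycoproteins. Their log2 fold changes were 0.052 (SE 0.081), 0.077 (SE 0.081) and -0.088 (SE 0.084). EDEM1 was lower in shHBO1 in all 3 pairs. HERPUD1 had 4250, 4418 and 4473 normalized counts in shHBO1, against 4516, 4365 and 3827 in shCTRL, and its groups overlapped.

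The 35 genes were also compared between replicate numbers, beside the shares over all tested genes. Same-numbered libraries were treated as pairs because they deviated together, most clearly those numbered 3. The pairing was thus read from these same data, and numbers 1 and 2 were not clearly told apart. The test between numbers is therefore no separate evidence of pairing. No day or batch is named in the labels. A limma F test of the replicate number beside the group called 2 of the 35 genes (5.71%), DDIT4 and ATF5, where 9.68% of tested genes passed. At an unadjusted limma p under 0.05 there were 10 of the 35 (28.6%), against 30.1% of tested genes. DDIT4 averaged 7658, 6870 and 3517 normalized counts in numbers 1, 2 and 3, a log2 difference of -1.14 between numbers 3 and 1 (limma adjusted p = 0.0158). Both groups showed it, with replicate 3 the lowest at 4188 in shHBO1 and 2845 in shCTRL.

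ATF5 went the other way, averaging 1690, 1548 and 2181 in numbers 1, 2 and 3 (log2 difference 0.37 between numbers 3 and 1, limma adjusted p = 0.0440). The next 4 genes by p did not pass. EIF2AK3 had a log2 difference of -0.38 between numbers 3 and 1 (adjusted p = 0.0519 with limma), and ATF4 had -0.23 (adjusted p = 0.0527 with limma). SDF2L1 had 0.27 (limma adjusted p = 0.0642) and DNAJC3 had 0.32 (limma adjusted p = 0.0727). A filter at a mean of at least 50, which tests fewer genes, added ATF4 and EIF2AK3 to the called genes, where 12.3% of tested genes then passed.

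**Figure D4:**
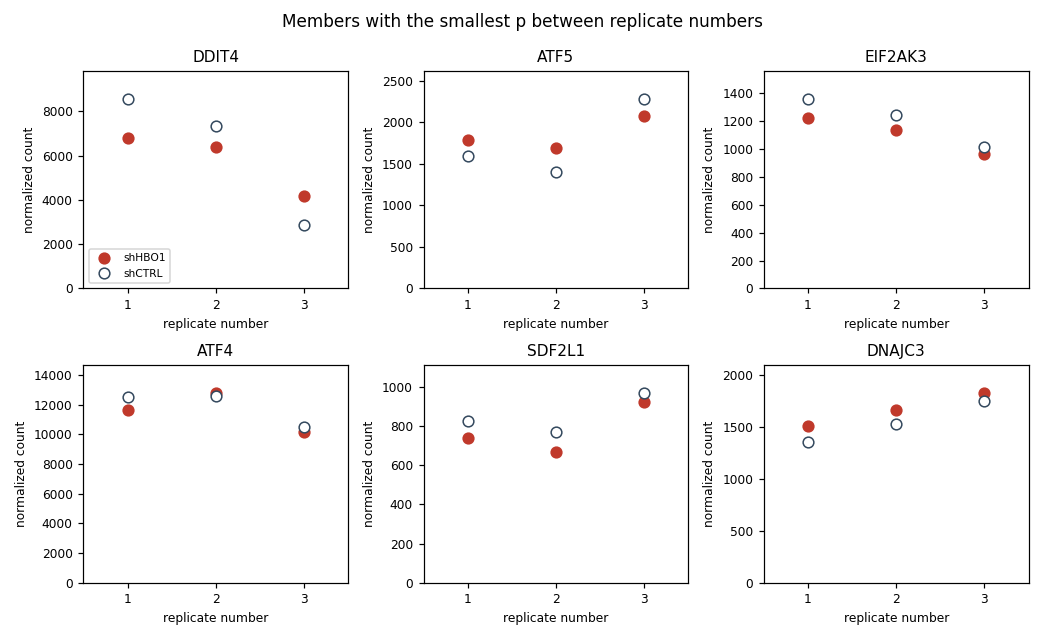
Normalized counts (y axis, from 0) by replicate number (x axis) for the 6 genes with the smallest p between numbers, with shHBO1 filled and shCTRL open. DDIT4, EIF2AK3 and ATF4 are lowest and ATF5, SDF2L1 and DNAJC3 highest in number 3 in both groups.

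Other genes of the pathway were read from lists beside the 35, and 0 passed in any of them. The 12 genes of the other eIF2 kinases, eIF2, eIF2B and the eIF2 phosphatase subunit PPP1R15B had a median log2 fold change of 0.0092. The RNA-activated kinase EIF2AK2 was at 0.13 and the haem-regulated kinase EIF2AK1 at -0.099. EIF2AK2 and EIF2AK1 did not pass. The 20 cytosolic aminoacyl-tRNA synthetases, many of them ATF4 targets, had a median of -0.014, with 14 of 20 below 0, FARSB at -0.11 and VARS1 at -0.15. Of these 20 genes 1, AARS1, differed between replicate numbers, by -0.58 between numbers 3 and 1. Over all tested genes 9.68% did so. The 14 tested of 15 other ATF4-linked genes had a median of 0.067, with the alanine aminotransferase GPT2 at 0.17 and the stress-induced mTORC1 regulator SESN2 at 0.26.

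GDF15, a secreted stress cytokine in that list, had 239, 154 and 134 normalized counts in shHBO1, against 433, 256 and 92.3 in shCTRL. It was the 1 gene of the 14 tested that differed between replicate numbers, where 9.68% of all tested genes did. The log2 value was -1.52 between numbers 3 and 1 (limma adjusted p = 0.0452). Its log2 fold change between groups was -0.35 (SE 0.52) and did not pass. As with DDIT4, replicate 3 was the lowest in each group.

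The 7 tested of 8 ER membrane transcription factors and their proteases had a median of -0.14. CREB3L2, a transmembrane factor of secretory capacity, had 719, 553 and 691 normalized counts in shHBO1, against 977, 923 and 747 in shCTRL. The CREB3L2 groups did not overlap, with a log2 difference of -0.43 (SE 0.15, limma adjusted p = 1.00). In the same list ATF6B, the ATF6 paralogue, had -0.14. CREB3L4, 1 of the 7 tested, differed between replicate numbers (-0.56 between numbers 3 and 1), where 9.68% of all tested genes did.

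The 17 other ER folding genes had a median of -0.12, with 13 of 17 below 0, and the lowest p belonged to the retrieval receptor KDELR1 (-0.15, SE 0.068) and the lectin chaperone CALR (-0.17, SE 0.081). The 18 other translocation and ERAD genes had a median of -0.0039, with 12 of 18 below 0, DERL3 at -0.52 (SE 0.26) and EDEM2 at -0.17 (SE 0.088). None of these genes passed after adjustment. Over the 88 tested genes of the 6 lists the groups did not overlap in 9 (10.2%), against 8.93% of all tested genes. SESN2 and DERL1 were higher in shHBO1, and FARSB, LARS1, CREB3L2, CALR, KDELR1, KDELR2 and EDEM2 were lower. The estimates of all tested genes were below 0 in 49.97%, which is the background for the counts below 0 in these lists.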

How the data were processed

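RNA-seq of 3 shHBO1 and 3 shCTRL libraries was analysed. The authors deposited normalized signal, a count per RefSeq transcript divided by 1 factor per library. Bowtie 1.2.1.1, SAMtools, DESeq2 and hg19 are named, without roles, per the submitters' processing notes. Every value was a whole multiple of a library's step (tolerance 0.01 read, 100% of values), so whole reads were recovered. Of 58215 transcripts, 57185 were named from RefSeq (GRCh38.p14) and 651 from GENCODE 29, and 379 without a name (0.0943 to 0.0996% of reads) were left out. Transcripts were summed per gene, so a read counted for several transcripts enters more than once. Overlapping, antisense and near-identical genes cannot be separated.

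The members and lists were chosen with earlier results of these data known. limma 3.58.1 (R 4.3.3) fitted log2(normalized count + 1) on the group, and pairing by replicate number was an alternative (replicate block). Deviations of same-numbered libraries correlated at 0.32, 0.19 and 0.48, all over 0.1. Those of shHBO1 replicate 1 and shCTRL replicate 2 correlated at 0.21, so numbers 1 and 2 were not clearly told apart. Fold changes on this scale understate changes of low genes. edgeR 4.0.16 and DESeq2 1.42.0 were run on recovered reads. Exact permutation tests used scipy 1.17.1. Genes given in full were ATF4, DDIT3, XBP1, HSPA5, the 3 sensors, the 10 members with the smallest p, those whose groups did not overlap, the 6 with the smallest p between numbers, and 2 per pathway list; others named are members or genes that differed between numbers.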

Additional observations from a re-analysis of the deposited data

How the results depend on the processing

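No alternative called any of the 35 genes between shHBO1 and shCTRL. These were TMM scaling, a pseudocount of 8, no filter or a mean of at least 50, the most abundant transcript, edgeR, DESeq2, the replicate block, an adjusted p of 0.10, and each library or both libraries numbered 3 left out. KAT7 passed in each, with log2 fold changes of -2.16 to -1.98 when a library was left out. Over all genes 1 passed in most settings, 19 in DESeq2, 19 with the replicate block and 18 with the replicate block in edgeR; the cause was not tested. A mean of at least 50 gave 4 members called between replicate numbers. The sign of DDIT4 turned in edgeR (-0.11) and DESeq2 (-0.11), and without both libraries numbered 3 (-0.27), where CEBPB (-0.017) and DDIT3 (-0.045) turned too; the cause was not tested. With 1 library left out, log2 fold changes ran from -0.13 to 0.042 for ATF4, -0.044 to 0.31 for ATF5, -0.088 to 0.19 for DDIT3, -0.49 to 0.31 for DDIT4 and -0.16 to 0.35 for ERN1, and the median of the 35 from -0.020 to 0.028. The XBP1 share difference ran from -7.74 to 1.34 points, and turned without shHBO1 replicate 3. Over the named members and settings, 304 values kept their sign and side of the threshold, whatever their size, and 16 turned. The filters and the limma replicate block leave each log2 fold change as it was, so there a sign could not turn. The 304 are thus not a measure of stability. The most abundant transcript moved EIF2AK3 to -2.23 and ATF3 to -0.52; neither passed. The number of libraries, 3 a group, limits the precision to the intervals given.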
